A study of Homo sapiens with 9 samples.

Results

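The mTORC1 pathway was followed in hypoxic Hep3B cells through 10 genes, chosen by symbol: the hypoxic brake DDIT4, TSC1 and TSC2, the GTPase RHEB, the complex subunits MTOR and RPTOR, the complex inhibitors DEPTOR and AKT1S1, and the substrates EIF4EBP1 and EIF4EBP2. The count table listed 60683 genes and held all 10, and all 10 were among the 22672 genes with at least 10 counts over the libraries, which were tested. The lowest count of any of the 10 genes in any library was 34, for DEPTOR. Hep3B is an established human liver cancer line, and RNA-seq was performed on 9 cultures in 6-well plates after 24 hours: 3 received DMSO vehicle at 20% O2, 3 received the same vehicle at 1% O2, and 3 received the HIF inhibitor 32-134D at 1% O2. The labels call the 3 cultures of each group biological replicates and give no dose of 32-134D, and no culture received 32-134D at 20% O2. Total counts ran from 6013980, in replicate 2 of vehicle at 20% O2, to 40549699. All 7 hepatocyte and hepatoma markers examined were detected, with ALB between 5947 and 10207 CPM (counts scaled to library size). Their summed level was 16736 to 18115 CPM in vehicle at 20% O2, 11567 to 14336 CPM in vehicle at 1% O2 and 11313 to 16707 CPM with 32-134D, and APOB, the main apolipoprotein of the lipoproteins secreted by liver, had group means of 4486, 405 and 3519 CPM in this order. In contrast, CD3E, KDR and ACTA2 had no count in any library. The 4 leukocyte and 3 endothelial markers summed to at most 4.37 and 1.28 CPM in any library, with 3 and 2 of them detected. Of 4 fibroblast markers 3 were detected, mostly PDGFRB at 9.44 to 29.3 CPM and COL1A1 at 2.73 to 10.4 CPM, and their sum also moved with the groups, at 32.0 to 35.8 CPM in vehicle at 20% O2, 12.996 to 14.3 CPM in vehicle at 1% O2 and 27.9 to 30.0 CPM with 32-134D. The part of other cells, or of a change in the liver cell markers, in the results below was not tested. Replicate 3 of 32-134D stood apart from replicates 1 and 2 of its group: the chi-square per degree of freedom of its counts against theirs was 40.5 and 36.2, against 2.08 between those 2 replicates. Replicate 1 of vehicle at 20% O2 also stood apart from replicates 2 and 3, at 6.72 and 13.3 against 1.64 between those 2. For replicate 1 of vehicle at 1% O2 the values were 8.63 and 12.96, against 2.60. Values without replicate 3 of 32-134D are also given for several of the genes in which it lay apart from replicates 1 and 2.

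mTORC1 is the kinase complex that couples growth factors, amino acids, energy and oxygen to protein synthesis and cell growth. It is switched on at the lysosome by RHEB in its GTP-bound form, and the TSC1-TSC2 complex switches RHEB off by promoting the hydrolysis of that GTP. In hypoxia, the HIF target DDIT4 (also called REDD1) restrains mTORC1 through the TSC complex, and when mTORC1 is inhibited the 4E-BP proteins encoded by EIF4EBP1 and EIF4EBP2 lose phosphate and hold the cap-binding factor eIF4E away from mRNA. RNA-seq measures the transcripts of these genes and neither phosphorylation nor kinase activity.

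Hypoxia raised the transcripts of the brake gene DDIT4 and the inhibitor DEPTOR and lowered those of the 2 complex subunits, MTOR and RPTOR. RHEB and EIF4EBP1 rose, TSC2 fell, and TSC1, AKT1S1 and EIF4EBP2 did not pass the thresholds. Calls required a fold change above 1.5 and an FDR below 0.05 from edgeR's quasi-likelihood test after Benjamini-Hochberg adjustment. By this rule 7 of the 10 genes were called between vehicle at 1% O2 and vehicle at 20% O2, 4 higher and 3 lower, against 39.7% of all genes tested (19.5% higher and 20.3% lower). Between 32-134D and vehicle at 1% O2, 6 of the 10 were called, 3 higher and 3 lower, against 29.9% of all genes tested (16.2% higher and 13.7% lower). Both comparisons use the vehicle libraries at 1% O2, so their values are set side by side and are not independent of each other. Between 32-134D at 1% O2 and vehicle at 20% O2, 1 of the 10 genes, DDIT4, was called, and it was higher, against 3.52% of all genes tested (3% higher and 0.516% lower). The median log2 fold change of the 10 genes was 0.07, -0.11 and -0.03 in the 3 comparisons, and over all genes tested it was 0.001, -0.01 and -0.003. CPM are shares of a library, so fewer cells of a type and less RNA per cell cannot be told apart in these cultures.

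**Figure D1:**
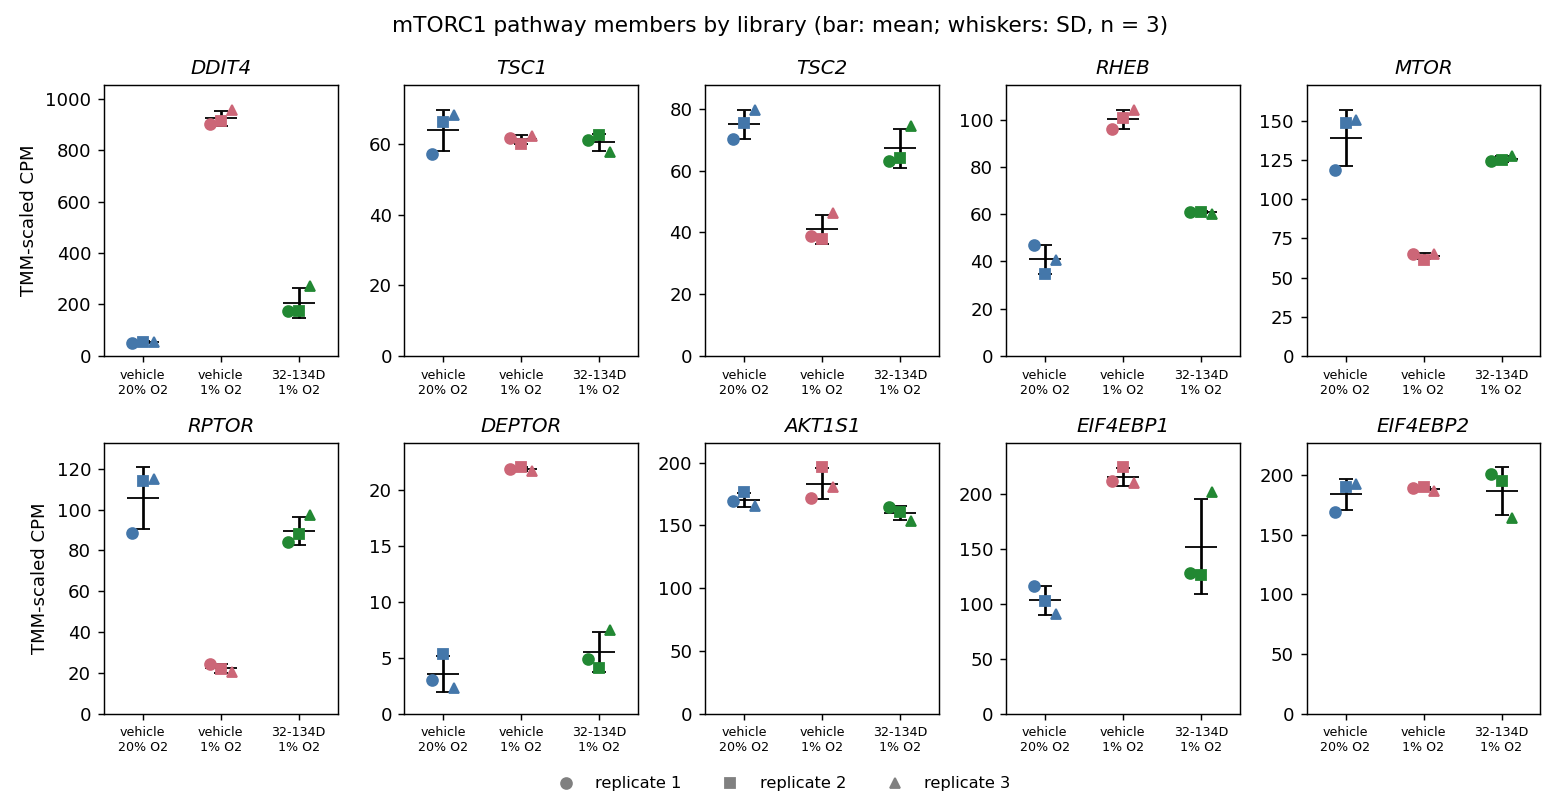
TMM-scaled CPM of the 10 genes in each of the 9 libraries, 1 panel per gene, with the mean as a bar and the SD as whiskers (n = 3 per group); each y axis starts at 0. DDIT4, RHEB, DEPTOR and EIF4EBP1 were highest in vehicle at 1% O2, TSC2, MTOR and RPTOR were lowest there, and the 3 groups of TSC1 and of EIF4EBP2 overlap.

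DDIT4 had the largest increase of the 10 genes in hypoxia. It was present at 48.8, 55.6 and 54.3 CPM in vehicle at 20% O2, at 902, 913 and 957 CPM in vehicle at 1% O2, and at 174, 173 and 272 CPM with 32-134D. The 3 groups did not overlap, and the 32-134D libraries lay between the vehicle groups. In hypoxia the log2 fold change was 4.13 (SE 0.16, FDR 4.28e-11 from edgeR), which is 17.5-fold, and 197 of the 22672 genes tested had a higher one. With 32-134D, DDIT4 fell by 2.17 on the log2 scale relative to vehicle at 1% O2 (SE 0.14, FDR 2.34e-08 from edgeR), which is 4.49-fold. Replicate 3 of 32-134D was 1.57 times the mean of replicates 1 and 2, and without it DDIT4 fell by 2.42 on the log2 scale (FDR 2.64e-20 from edgeR). DDIT4 (ENSG00000168209) lies at chr10:72273920-72276036 on the plus strand of GRCh38. The antisense gene DDIT4-AS1 overlaps 41.2% of its exonic bases. It had 495 counts over all libraries against 101118 for DDIT4, and since the strand setting of the counting is not given in the sources used here, reads of the overlap cannot be assigned to one strand.

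The bases before the start of DDIT4 and of 3 further genes are shown because DDIT4 and RHEB rose and MTOR and RPTOR fell under the same O2 change. HIF binds the core letters ACGTG or GCGTG of the hypoxia response element, and these are in capitals where they lie on the printed strand. On the opposite strand they read CACGT or CACGC, which are also in capitals. Sequences are from RefSeq on GRCh38.p14, written 5′ to 3′ on the strand of the gene, each the 250 bases before the RefSeq start.
DDIT4, chr10:72273674-72273923, plus strand: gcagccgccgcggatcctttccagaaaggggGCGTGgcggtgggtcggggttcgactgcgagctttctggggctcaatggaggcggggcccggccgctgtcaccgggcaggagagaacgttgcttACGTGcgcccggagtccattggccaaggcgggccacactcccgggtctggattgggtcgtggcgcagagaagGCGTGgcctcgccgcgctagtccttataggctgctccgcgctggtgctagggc
RHEB, chr7:151519896-151520145, minus strand: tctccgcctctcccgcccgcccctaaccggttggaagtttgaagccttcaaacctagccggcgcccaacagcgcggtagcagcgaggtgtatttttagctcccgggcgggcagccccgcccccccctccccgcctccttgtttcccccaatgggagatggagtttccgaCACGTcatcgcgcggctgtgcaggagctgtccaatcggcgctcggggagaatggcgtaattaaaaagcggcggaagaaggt
MTOR, chr1:11262552-11262801, minus strand: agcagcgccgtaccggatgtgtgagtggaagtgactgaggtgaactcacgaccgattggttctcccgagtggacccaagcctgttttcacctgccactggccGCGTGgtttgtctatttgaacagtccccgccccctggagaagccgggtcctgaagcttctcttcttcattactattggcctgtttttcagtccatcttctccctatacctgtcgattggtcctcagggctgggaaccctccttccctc
RPTOR, chr17:80544588-80544837, plus strand: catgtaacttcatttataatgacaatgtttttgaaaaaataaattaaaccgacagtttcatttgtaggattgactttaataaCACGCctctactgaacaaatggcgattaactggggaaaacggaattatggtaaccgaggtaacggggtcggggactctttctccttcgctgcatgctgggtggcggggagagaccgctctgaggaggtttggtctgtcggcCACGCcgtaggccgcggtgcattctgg
Promoter windows of 300 bases (250 before and 50 after the start) were matched for 7 of the 10 genes, and DEPTOR, AKT1S1 and EIF4EBP1 were not matched. DDIT4 held 4 matches on its own strand, at 219, 125 and 53 bases before the start and 25 bases after it. RPTOR held 2, at 168 and 27 bases before the start, RHEB held 1 at 81 bases and MTOR held 1 at 148 bases. EIF4EBP2 held 1 at 89 bases, TSC2 held 2 that overlap within 1 CACGTG, and TSC1 held none. Searched on both strands, 48.4% of 27305 RefSeq promoter windows of the same length held at least 1 match, 23.3% held 2 or more, 4.45% held 4 or more and 7.43% held CACGTG. Matches were therefore found in genes that rose (DDIT4, RHEB), in genes that fell (TSC2, MTOR, RPTOR) and in 1 that was not called (EIF4EBP2), and they describe letters and not binding.

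Of the remaining brake genes, the 2 partners of the TSC complex, TSC2 was called in both comparisons and TSC1 in neither. TSC2 (ENSG00000103197, chr16:2047465-2089487, plus strand of GRCh38) carries the GTPase-activating domain that acts on RHEB. Its levels were 70.1, 75.5 and 79.5 CPM in vehicle at 20% O2, 38.7, 37.9 and 46.4 CPM in vehicle at 1% O2, and 63.0, 64.0 and 74.6 CPM with 32-134D. Vehicle at 1% O2 was below both other groups in every library, and the other two groups overlapped. The log2 fold change was -0.87 in hypoxia (SE 0.10, FDR 2.29e-06 from edgeR) and 0.71 with 32-134D (SE 0.10, FDR 2.36e-05). With trends over transcript length and GC content removed, TSC2 was at -0.42 and 0.35 and lost both calls. TSC1 (ENSG00000165699, chr9:132891348-132946874, minus strand), which stabilizes TSC2, ranged from 57.2 to 68.1 CPM in vehicle at 20% O2, from 59.9 to 62.2 CPM in vehicle at 1% O2 and from 57.7 to 62.4 CPM with 32-134D. These ranges overlap. Its log2 fold change was -0.06 in hypoxia (95% confidence interval -0.23 to 0.11) and -0.02 with 32-134D (-0.19 to 0.15), intervals that do not reach the 1.5-fold threshold of 0.58, and the sign of the second was positive with other scalings. Within libraries, the TSC1 to TSC2 count ratio was 0.815, 0.877 and 0.857 in vehicle at 20% O2, 1.60, 1.58 and 1.34 in vehicle at 1% O2, and 0.970, 0.975 and 0.773 with 32-134D, so vehicle at 1% O2 was above all other libraries. PKD1 and NTHL1 share 4.0% and 2.0% of the exonic bases of TSC2, with 10271 and 4550 counts over all libraries against 13431 for TSC2.

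RHEB (ENSG00000106615, chr7:151466012-151520120, minus strand), the direct activator of mTORC1, was higher in hypoxia. It was measured at 47.1, 34.9 and 40.7 CPM in vehicle at 20% O2, at 95.9, 101 and 104 CPM in vehicle at 1% O2, and at 60.9, 61.1 and 60.3 CPM with 32-134D. The 3 groups did not overlap, and the SD of the 32-134D group was 0.72% of its mean. In hypoxia the log2 fold change was 1.28 (SE 0.09, FDR 2.45e-08 from edgeR), which is 2.43-fold. With 32-134D it was -0.72 (SE 0.09, FDR 9.88e-06 from edgeR). Scaled to total library size, the 32-134D change was -0.53, under the 1.5-fold threshold. The RHEB paralog RHEBL1 was at 0.932 to 3.54 CPM and was called in both comparisons, with log2 fold changes of 1.22 and -0.997.

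Both complex subunits among the 10 genes fell in hypoxia. MTOR (ENSG00000198793, chr1:11106535-11262507, minus strand), the kinase itself, was at 119, 148 and 151 CPM in vehicle at 20% O2, at 65.0, 61.3 and 65.0 CPM in vehicle at 1% O2, and at 124, 125 and 128 CPM with 32-134D. Vehicle at 1% O2 lay below all 6 other libraries, while the range with 32-134D fell inside that of vehicle at 20% O2. The log2 fold change of MTOR was -1.12 in hypoxia (SE 0.09, FDR 5.38e-08 from edgeR) and 0.98 with 32-134D (SE 0.09, FDR 4.47e-07). RPTOR (ENSG00000141564, chr17:80544819-80966371, plus strand) encodes raptor, the scaffold that brings substrates to mTORC1. It was at 88.4, 114 and 115 CPM in vehicle at 20% O2, at 24.3, 22.02 and 20.2 CPM in vehicle at 1% O2, and at 84.0, 87.9 and 97.3 CPM with 32-134D. Again vehicle at 1% O2 lay below all other libraries and the other two groups overlapped. RPTOR fell the most of the 10 genes, by 2.25 on the log2 scale (SE 0.11, FDR 5.62e-10 from edgeR), which is 4.76-fold, and 1423 of the 22672 genes tested had a lower log2 fold change. With 32-134D it rose by 2.01 (SE 0.11, FDR 4.69e-09 from edgeR), which is 4.04-fold.

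RICTOR, the scaffold of the second mTOR complex, did not pass the thresholds where RPTOR did. Its log2 fold changes were 0.19 in hypoxia (95% confidence interval -0.05 to 0.43, FDR 0.17 from edgeR) and 0.08 with 32-134D (-0.16 to 0.31, FDR 0.609). MLST8, the subunit that both complexes hold, had -0.42 in hypoxia (FDR 5.01e-04 from edgeR), under the fold threshold, and 0.10 with 32-134D. The RPTOR to RICTOR ratio of counts within a library does not depend on scaling between libraries. It was 1.79, 2.06 and 1.93 in vehicle at 20% O2, 0.339, 0.383 and 0.345 in vehicle at 1% O2, and 1.41, 1.39 and 1.29 with 32-134D. The groups did not overlap, and vehicle at 1% O2 was the lowest. The mean log2 ratio was lower by 2.43 in hypoxia, from 0.94 ± 0.10 to -1.49 ± 0.10 (SD, n = 3), and it was 0.45 ± 0.07 (SD, n = 3) with 32-134D. The exact two-sided permutation test of 3 libraries against 3 gave p = 0.1 for each comparison, the smallest it allows, and 0.133 after Benjamini-Hochberg adjustment over 8 ratio tests.

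**Figure D2:**
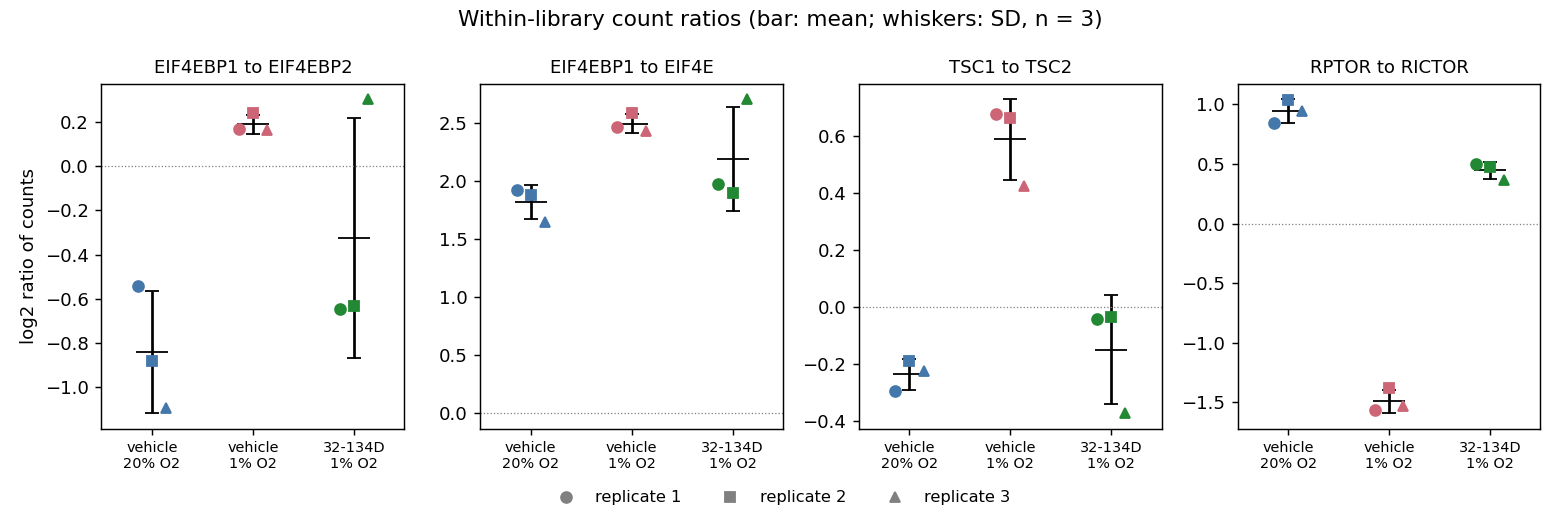
Log2 ratio of the counts of 2 genes within each library, with the mean as a bar and the SD as whiskers (n = 3 per group), for EIF4EBP1 to EIF4EBP2, EIF4EBP1 to EIF4E, TSC1 to TSC2 and RPTOR to RICTOR. The RPTOR to RICTOR ratio was lower in vehicle at 1% O2 than in both other groups, and replicate 3 of 32-134D (triangle) was above the vehicle libraries at 1% O2 in both EIF4EBP1 ratios.

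Of the 2 inhibitors held in the complex, DEPTOR changed and AKT1S1 did not pass the thresholds. DEPTOR (ENSG00000155792, chr8:119873717-120050913, plus strand) binds mTOR and inhibits both complexes. It was at 3.01, 5.34 and 2.28 CPM in vehicle at 20% O2, at 21.9, 22.1 and 21.7 CPM in vehicle at 1% O2, and at 4.91, 4.04 and 7.50 CPM with 32-134D. Vehicle at 1% O2 was above both other groups, and the other two groups overlapped. The log2 fold change was 2.82 in hypoxia (SE 0.25, FDR 2.24e-07 from edgeR), which is 7.08-fold and second to DDIT4 among the 10 genes, and -2.02 with 32-134D (SE 0.22, FDR 2.75e-06), or -2.28 without replicate 3 of 32-134D. Its precision at 20% O2 is limited by 42, 34 and 75 counts. AKT1S1 (ENSG00000204673, chr19:49869033-49878459, minus strand) encodes PRAS40, an inhibitor that leaves raptor after phosphorylation by AKT. It ranged from 165 to 176 CPM in vehicle at 20% O2, from 172 to 197 CPM in vehicle at 1% O2 and from 154 to 165 CPM with 32-134D. Its log2 fold change was 0.10 in hypoxia (95% confidence interval -0.05 to 0.26, FDR 0.23 from edgeR), a sign that turned with total library size or upper quartile scaling. With 32-134D it was -0.20 (-0.35 to -0.05, FDR 0.0318 from edgeR), past the FDR threshold and under the fold threshold. TBC1D17 shares 6.8% of the exonic bases of AKT1S1.

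The 2 substrates that restrain eIF4E also parted. EIF4EBP1 (ENSG00000187840, chr8:38030341-38060365, plus strand), which encodes 4E-BP1, was at 116, 103 and 90.4 CPM in vehicle at 20% O2, at 212, 225 and 209.9 CPM in vehicle at 1% O2, and at 128, 126 and 202 CPM with 32-134D. Replicate 3 of 32-134D was 1.59 times the mean of replicates 1 and 2 and close to the hypoxic vehicle libraries. In hypoxia EIF4EBP1 rose by 1.07 on the log2 scale (SE 0.15, FDR 2.34e-05 from edgeR), which is 2.09-fold. With 32-134D the log2 fold change was -0.50 (SE 0.15, FDR 0.0106 from edgeR), under the fold threshold. Without replicate 3 of 32-134D it was -0.76 (FDR 6.31e-09 from edgeR) and was called. EIF4EBP2 (ENSG00000148730, chr10:70404379-70428618, plus strand), which encodes 4E-BP2, ranged from 169 to 193 CPM, from 187 to 190.3 CPM and from 164 to 201 CPM in the same order of groups. Its log2 fold changes were 0.04 in hypoxia (95% confidence interval -0.14 to 0.22) and -0.01 with 32-134D (-0.19 to 0.16), and both signs turned with other scalings. The paralog EIF4EBP3 did not pass in either comparison, with log2 fold changes of 0.54 and 0.21.

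The proportion of EIF4EBP1 to EIF4EBP2 was higher in all 3 hypoxic vehicle libraries than in the normoxic ones. The ratio of EIF4EBP1 to EIF4EBP2 counts was 0.686, 0.543 and 0.469 in vehicle at 20% O2 and 1.12, 1.18 and 1.12 in vehicle at 1% O2. With 32-134D it was 0.639, 0.645 and 1.23, so replicates 1 and 2 lay in the range of vehicle at 20% O2 and replicate 3 lay above every other library. The longest transcripts of EIF4EBP1 and EIF4EBP2 have 1020 and 7257 bases. Genes of up to 1500 and of over 6000 bases had median log2 fold changes of 0.26 and -0.22 in hypoxia. The ratio was not corrected for this trend, and the part of transcript length in it was not tested. EIF4E, the cap-binding factor, had a log2 fold change of 0.39 in hypoxia (FDR 7.69e-04 from edgeR), under the fold threshold, and the EIF4EBP1 to EIF4E ratio was higher by 0.68 on the log2 scale in hypoxia. The hypoxia difference of both EIF4EBP1 ratios, and both differences of the TSC1 to TSC2 ratio, gave p = 0.1 in the exact two-sided permutation test, the smallest possible, and the 2 differences of the EIF4EBP1 ratios with 32-134D gave p = 0.4.

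**Figure D3:**
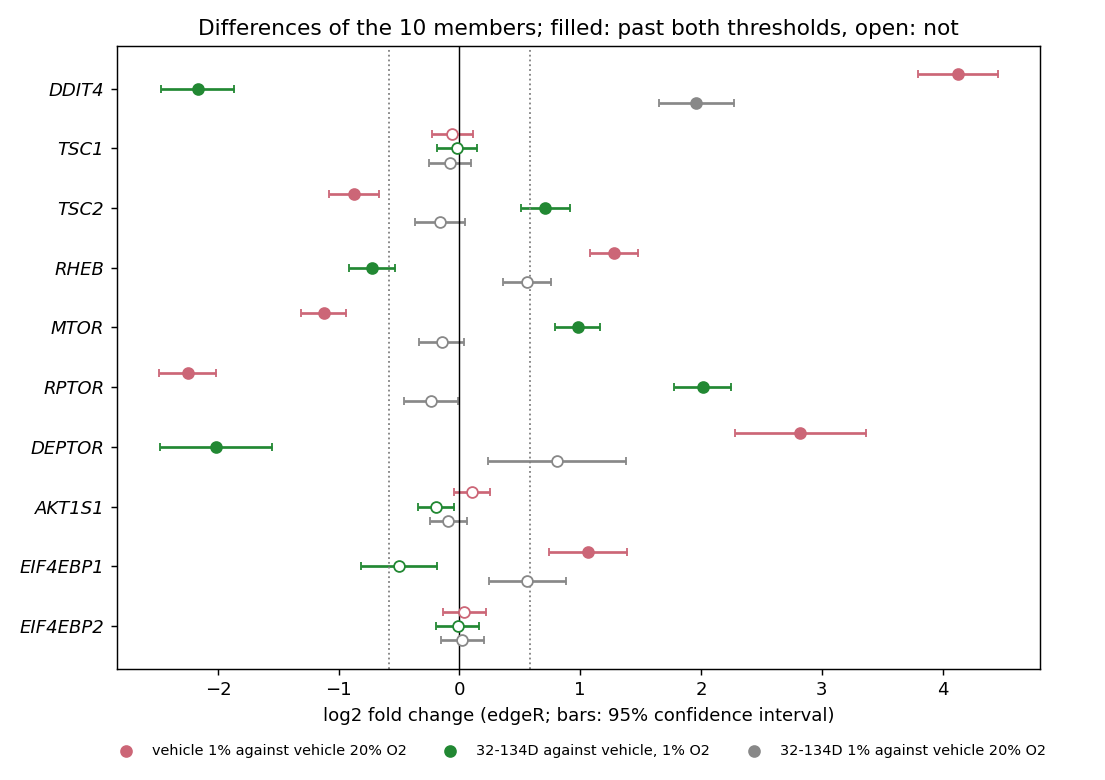
Log2 fold change of each of the 10 genes from edgeR with its 95% confidence interval, in the 3 comparisons; filled points passed the FDR and fold change thresholds, open points did not, and dotted lines mark the 1.5-fold threshold. In hypoxia the values run from -2.25 for RPTOR to 4.13 for DDIT4, and in 32-134D at 1% O2 against vehicle at 20% O2 (grey) DDIT4 is the filled point, at 1.96.

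The comparison of 32-134D at 1% O2 with vehicle at 20% O2 asks how far hypoxic cells given the inhibitor lay from normoxic cells. DDIT4 was higher by 1.96 on the log2 scale (SE 0.14, FDR 8.04e-07 from edgeR), which is 3.90-fold, and by 1.71 without replicate 3 of 32-134D. RHEB and EIF4EBP1 passed the FDR threshold but not the fold threshold, each with a log2 fold change of 0.56 (FDR 0.00129 and 0.0272 from edgeR), and without replicate 3 of 32-134D EIF4EBP1 was at 0.31. DEPTOR had 0.81 (FDR 0.0702 from edgeR), and it passed in DESeq2 at 0.76 (FDR 0.0260). The genes that fell in hypoxia were closer to the normoxic level: the 95% confidence interval was -0.37 to 0.04 for TSC2, -0.33 to 0.04 for MTOR and -0.46 to -0.01 for RPTOR, whose FDR was 0.175 from edgeR. The number of the 10 genes called here depended on single libraries. Leaving out replicate 1 of vehicle at 20% O2, or replicate 3 of vehicle at 1% O2, gave 3 (with RHEB and EIF4EBP1 added), and leaving out replicate 2 of 32-134D also gave 3 (with DEPTOR and EIF4EBP1 added). The number was 2 when replicate 2 of vehicle at 20% O2, replicate 1 of 32-134D or replicate 3 of 32-134D was left out.

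The length of the transcripts moved with these changes and is given beside them. Over the genes placed in GENCODE with a mean of at least 1 CPM, the median log2 fold change in hypoxia was 0.26 for genes with a longest transcript of up to 1500 bases and -0.22 for the 2496 genes over 6000 bases, and with 32-134D it was -0.29 and 0.24. The longest transcripts of MTOR (8677 bases), RPTOR (6408), TSC2 (6344), TSC1 (8715) and EIF4EBP2 (7257) are in the longest class, and EIF4EBP1 (1020) is in the shortest. When each library was corrected for its trends over length and GC content, RPTOR had -1.80 in hypoxia and 1.65 with 32-134D, DDIT4 had 3.9997 and -1.996, DEPTOR had 2.62 and -1.88, and all of these were called. The TSC2 values given above then had FDRs of 0.00114 and 0.00516 from edgeR, and both were under the fold threshold. MTOR was called in hypoxia at -0.66 but not with 32-134D, at 0.54 (FDR 8.33e-06 from edgeR), and RHEB was called in hypoxia at 1.06 but not with 32-134D, at -0.56 (FDR 2.42e-05 from edgeR). TSC1 then had 0.32 in hypoxia, opposite in sign to -0.06. Over all 19 alternatives, TSC1 ran from -0.41 to 0.17 with 32-134D, under the fold threshold. Its lowest FDR among these edgeR and DESeq2 fits was 1.33e-04 with 32-134D and 0.00104 in hypoxia. EIF4EBP2 ran from -0.18 to 0.21 in hypoxia and from -0.25 to 0.17 with 32-134D. With these trends removed, 6 of the 10 genes were called in hypoxia and 3 with 32-134D. The cause of the length trend was not tested.

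**Figure D4:**
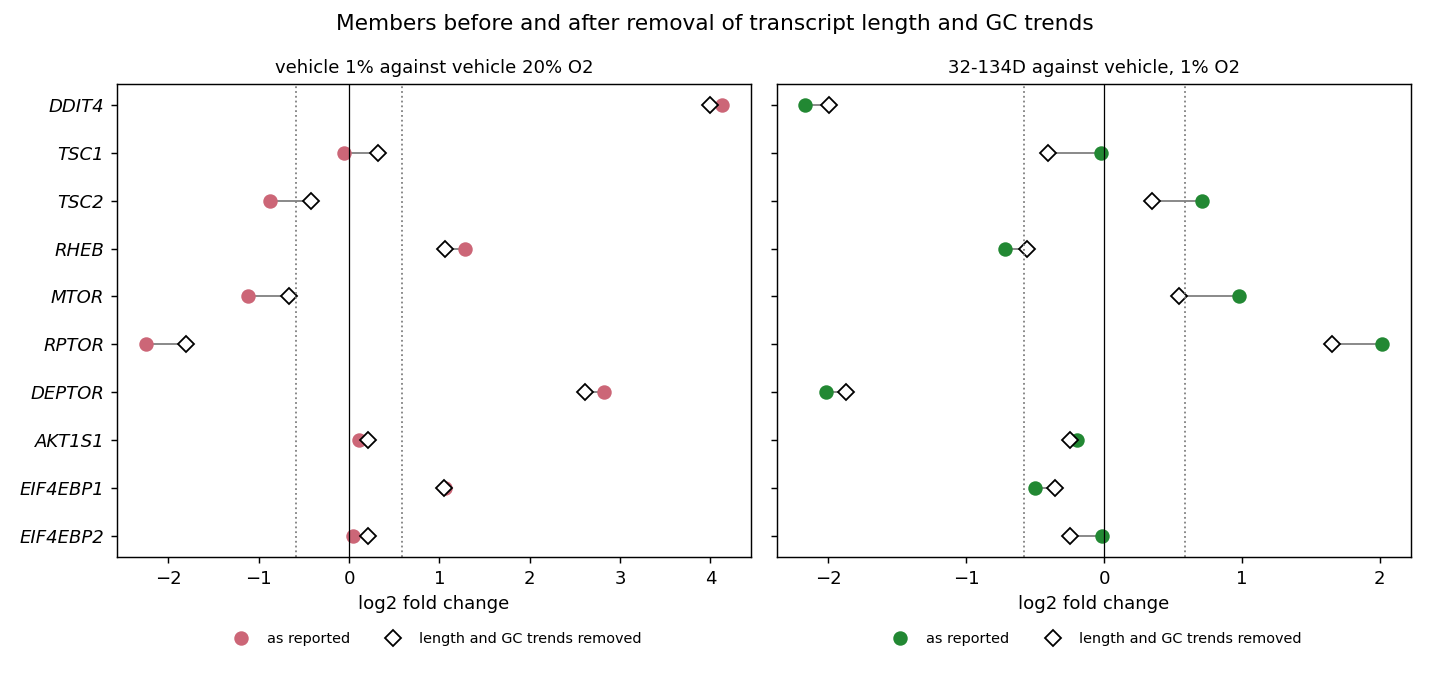
Log2 fold change of each of the 10 genes as reported (filled circles) and after each library was corrected for its length and GC trends (open diamonds), in hypoxia and with 32-134D; dotted lines mark the 1.5-fold threshold. RPTOR, DDIT4 and DEPTOR stay far outside the dotted lines, and TSC2 moves inside them in both comparisons.

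Levels of different genes were compared as CPM per kilobase of the longest transcript. In vehicle at 20% O2 the order was EIF4EBP1 at 101 ± 12.7 CPM per kilobase (SD, n = 3, here and for each value that follows), AKT1S1 at 46.8 ± 1.55, DDIT4 at 30.3 ± 2.08, EIF4EBP2 at 25.3 ± 1.75, RHEB at 19.7 ± 2.95, RPTOR at 16.5 ± 2.35, MTOR at 16.0 ± 2.07, TSC2 at 11.8 ± 0.74, TSC1 at 7.33 ± 0.67 and DEPTOR at 1.38 ± 0.62. Of the neighbours in this order, RHEB and RPTOR, and RPTOR and MTOR, differed by less than the sum of their SDs. In vehicle at 1% O2, DDIT4 was the highest at 529 ± 16.7 CPM per kilobase, above EIF4EBP1 at 211 ± 7.86, AKT1S1 at 50.3 ± 3.39, RHEB at 48.3 ± 1.97, EIF4EBP2 at 26.02 ± 0.21, DEPTOR at 8.52 ± 0.07, MTOR at 7.35 ± 0.24, TSC1 at 7.03 ± 0.14, TSC2 at 6.46 ± 0.74 and RPTOR at 3.46 ± 0.32. Here AKT1S1 and RHEB, MTOR and TSC1, and TSC1 and TSC2 differed by less than the sum of their SDs. RPTOR was thus below DEPTOR in vehicle at 1% O2 and above it at 20% O2. With 32-134D, EIF4EBP1 at 149 ± 42.4 and DDIT4 at 118 ± 32.5 CPM per kilobase were the highest, and MTOR at 14.5 ± 0.20 and RPTOR at 14.003 ± 1.07 were next to each other, with a difference in each pair below the sum of the SDs. With all exonic bases of a gene as its length, TSC2 was the lowest in vehicle at 1% O2, at 2.09 CPM per kilobase against 2.15 for RPTOR.

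Across the 9 libraries, the genes whose log2 CPM followed DDIT4 most closely, among 11140 genes with a mean of at least 5 CPM, were EAF1, MORC3, TBX15, MRPL10 and ZXDB, with Pearson's r from 0.997 to 0.999. The 9 points fall into 3 groups, so r mainly describes the order and spacing of the group means. The sizes of the changes differed: EAF1 had log2 fold changes of 1.01 in hypoxia and -0.53 with 32-134D, and TBX15 had 2.95 and -1.49.

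A further 102 genes of the pathway, in 6 lists, were examined for how widely the inputs and outputs of mTORC1 changed. In hypoxia 47 of the 102 were called, 33 higher and 14 lower. This share was 46.1% against 39.7% of all genes tested (19.5% higher and 20.3% lower), and the median log2 fold change of the 102 was 0.21. With 32-134D, 33 were called, 10 higher and 23 lower, with a median of -0.16. This share was 32.4% against 29.9% of all genes tested (16.2% higher and 13.7% lower). Scaled to total library size, 24 of the 47 genes called in hypoxia and 14 of the 28 called with 32-134D were higher, so the balance of directions depends on the scaling. With this scaling the median of all genes was -0.21 in hypoxia and 0.17 with 32-134D. Without replicate 3 of 32-134D, 33 of the 102 were also called with 32-134D, of which 30 were called in the same direction as with all libraries.

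**Figure D5:**
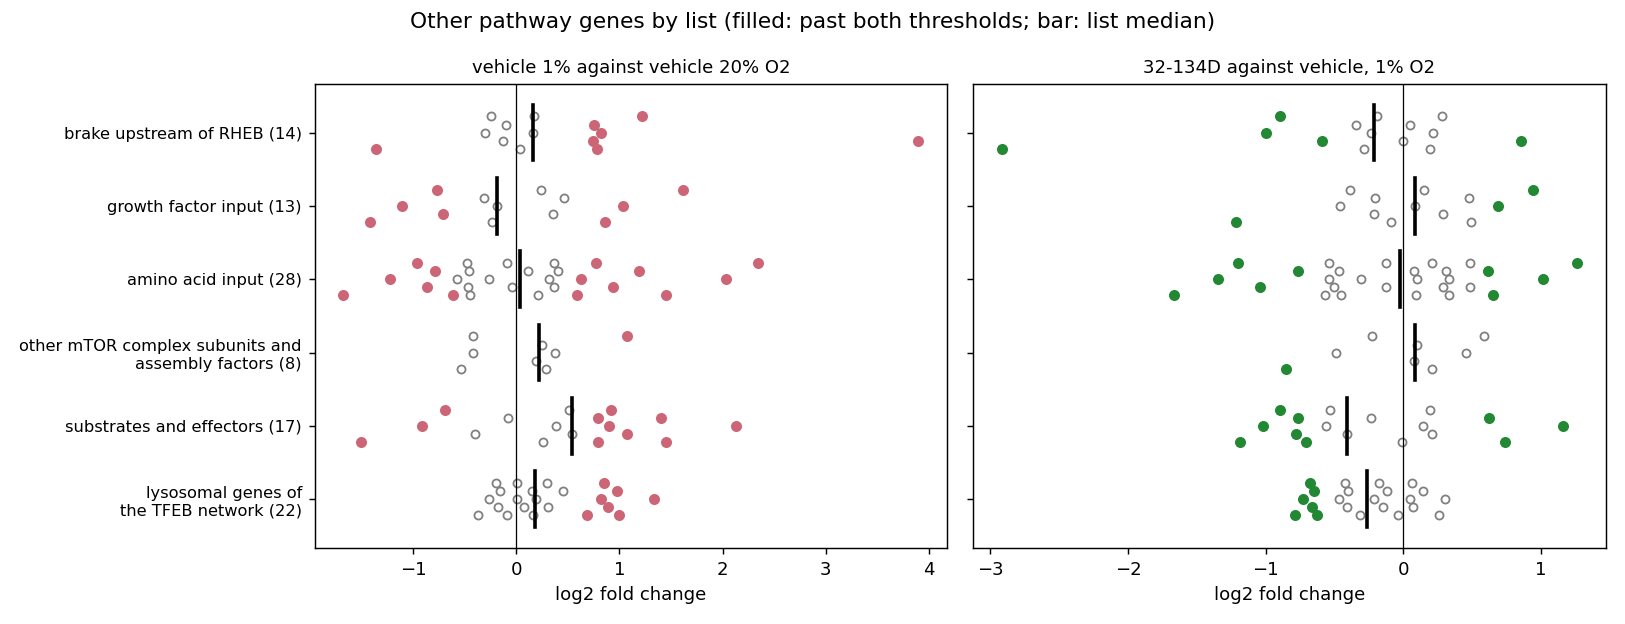
Log2 fold change of 102 further pathway genes in 6 lists, in hypoxia and with 32-134D, with the number of genes per list in parentheses; filled points passed both thresholds, open points did not, and the bar is the list median. BNIP3 is the point farthest from 0 in both panels, at 3.90 and -2.92. The called lysosomal genes lie above 0 in hypoxia and below 0 with 32-134D. With the 3 other scalings tried no lysosomal call went the other way, but with total library size 1 was called with 32-134D.

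Upstream of RHEB, 7 of 14 genes were called in hypoxia, 6 higher and 1 lower, and 5 with 32-134D, 1 higher and 4 lower. The shares called were 50% and 35.7%, against 39.7% and 29.9% of all genes tested, and with total library size 3 rather than 6 were higher in hypoxia. BNIP3, a mitophagy receptor that can also bind RHEB, rose by 3.90 on the log2 scale in hypoxia (FDR 2.84e-12 from edgeR) and fell by 2.92 with 32-134D. PRKAB2, a subunit of the energy sensor AMPK, had 0.83 and -0.89, or -0.72 without replicate 3 of 32-134D. DDIT4L, the paralog of DDIT4, rose by 0.74 in hypoxia (FDR 0.00365 from edgeR), at 2.71 to 5.47 CPM over the vehicle libraries. With 32-134D DDIT4L had -0.34 (FDR 0.113 from edgeR). Without replicate 3 of 32-134D it had -0.47 (FDR 0.0144 from edgeR), under the fold threshold. SESN3, a sestrin, fell by 1.35 in hypoxia. Its levels with 32-134D were 25.5, 23.9 and 8.09 CPM against 10.0 to 11.3 CPM in vehicle at 1% O2, so replicate 3 lay below the vehicle libraries although the gene was called higher, with a log2 fold change of 0.85, and 1.21 without replicate 3.

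Among 13 genes of the growth factor input, 3 were higher and 4 lower in hypoxia, and 2 were higher and 1 lower with 32-134D. These are 53.8% and 23.1% of the list, the first above and the second below the 39.7% and 29.9% of all genes tested. IRS2, an insulin receptor adaptor, rose by 1.04 in hypoxia (FDR 3.43e-05 from edgeR). PIK3R1, the regulatory subunit of PI3K, fell by 1.42 in hypoxia, and it was at 61.4, 61.4 and 24.3 CPM with 32-134D against 25.0 to 26.6 CPM in vehicle at 1% O2. As for SESN3, replicate 3 of 32-134D lay below the vehicle libraries, although PIK3R1 was called higher with a log2 fold change of 0.94, and 1.26 without replicate 3. IGF1R, the receptor of insulin-like growth factors, had -0.71 and 0.69.

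The amino acid input held 28 genes, of which 8 were higher and 6 lower in hypoxia, and 4 were higher and 5 lower with 32-134D. The shares called were 50% and 32.1%, against 39.7% and 29.9% of all genes tested. The balance turned with total library size, with 5 higher and 11 lower in hypoxia and 6 higher and 4 lower with 32-134D. SAMTOR (listed as BMT2), which senses S-adenosylmethionine and inhibits mTORC1 when that metabolite is scarce, rose by 2.34 in hypoxia and fell by 1.67 with 32-134D. The Rag GTPases RRAGD and RRAGC, which bring mTORC1 to the lysosome, rose by 2.03 and 1.45 and fell by 1.35 and 1.20. CASTOR2, a member of the CASTOR family of arginine sensors, fell by 1.67 and rose by 1.26 (1.46 without replicate 3 of 32-134D). In the list of other complex subunits and assembly factors, TTI2, part of the TTT complex that stabilizes mTOR, was the 1 of 8 genes called, at 1.08 in hypoxia and -0.85 with 32-134D. This share was below the 39.7% and 29.9% of all genes tested, but with total library size or upper quartile scaling 1 was higher and 3 were lower in hypoxia.

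Of 17 substrates and effectors, 8 were higher and 3 lower in hypoxia, and 3 were higher and 6 lower with 32-134D, with list medians of 0.54 and -0.41 against 0.001 and -0.01 over all genes tested. The shares called were 64.7% and 52.9%, against 39.7% and 29.9% of all genes tested. Among genes with a mean of at least 1 CPM, medians by transcript length class ran from -0.22 to 0.26 in hypoxia. With 32-134D these class medians ran from -0.29 to 0.24. ATF4, a stress-response transcription factor whose translation mTORC1 promotes, was at 221 to 238 CPM in vehicle at 20% O2, at 974 to 1019 CPM in vehicle at 1% O2 and at 408 to 484 CPM with 32-134D. It rose by 2.13 in hypoxia (FDR 4.09e-11 from edgeR) and fell by 1.19 with 32-134D, and the 3 groups did not overlap. MAF1, the repressor of RNA polymerase III that mTORC1 inactivates, had 1.45 and -1.02, and GRB10, an mTORC1 substrate that damps insulin signalling, had 1.40 and -0.78, or -1.003 without replicate 3 of 32-134D. SREBF1, the lipid synthesis regulator activated downstream of mTORC1, fell by 1.50 and rose by 1.16.

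Among 22 lysosomal genes of the TFEB network, which is active when mTORC1 is inhibited, 7 were called higher and 0 lower in hypoxia, and 0 higher and 6 lower with 32-134D, by edgeR. With total library size these numbers were 6 and 0 in hypoxia, and 0 and 1 with 32-134D. At an unadjusted edgeR p under 0.05, 11 of the 22 were higher and 2 lower in hypoxia, and 2 were higher and 12 lower with 32-134D. DESeq2 called 7 higher and 0 lower in hypoxia, and 0 higher and 5 lower with 32-134D. SQSTM1, the autophagy receptor p62, had the largest change, 1.33 and -0.78, and ATP6V1B2, a subunit of the lysosomal proton pump, had 1.00 and -0.73. The share called, 31.8% in hypoxia and 27.3% with 32-134D, was below the 39.7% and 29.9% of all genes called in either direction. The list's calls went in 1 direction, and over all genes tested 19.5% were called higher in hypoxia and 13.7% lower with 32-134D. The list medians were 0.18 and -0.26. Medians of the transcript length classes given above ran from -0.22 to 0.26 in hypoxia and from -0.29 to 0.24 with 32-134D. The part of transcript length in these calls was not tested.

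Against vehicle at 20% O2, 6 of the 102 genes were higher with 32-134D, a share of 5.88% against 3.52% of all genes tested, and 0 were lower by edgeR. Calls over all genes tested also leaned to higher, with 3% higher and 0.516% lower. The 6 were BNIP3 at 0.98, ATF4 at 0.94, RRAGD at 0.68, SAMTOR at 0.67, IRS2 at 0.65 and GRB10 at 0.62 on the log2 scale. Without replicate 3 of 32-134D, IRS2 at 0.37 and GRB10 at 0.39 were under the fold threshold, and the other 4 were still called. At an unadjusted edgeR p under 0.05, 23 of the 102 were higher and 15 lower, and DESeq2 called 6 higher and 0 lower.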

How the data were processed

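RNA was sequenced from 9 Hep3B cultures, 3 in each of 3 groups taken from the sample labels. The authors deposited raw counts per Ensembl gene, without normalization. Reads had been checked with FastQC, trimmed with Bbduk, mapped with STAR to an Ensembl reference on GRCh38 and counted with featureCounts, and the strand setting and tool versions are not given in the sources used here. The labels describe DMEM/F12 medium, and the methods describe high-glucose DMEM.

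The 22672 genes whose counts summed to at least 10 were fitted across the 9 libraries together, using edgeR 4.0.16 (R 4.3.3) with TMM factors and quasi-likelihood F tests. FDRs were adjusted by the Benjamini-Hochberg method over all genes tested. CPM were scaled by TMM, and 0 columns had no sample. The common biological coefficient of variation was 10.5%. No replicate was a copy of another of its group, since the chi-square per degree of freedom between the counts of any such pair was at least 1.64. This value cannot tell whether 2 libraries came from the same RNA. Within-library ratios added 0.5 to each count. Positions and transcript lengths are from GENCODE version 29 on GRCh38, while the deposited counts rest on a later Ensembl annotation of that assembly. Per-kilobase levels divide CPM by the longest transcript.

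The 10 genes, the 6 lists and the thresholds were chosen with earlier results of these data known. Every one of the 10 genes is named. From each list, up to 4 called genes per comparison with the largest absolute log2 fold change are named, with paralogs of the 10 genes, MLST8, and the partners used in ratios. Some genes that this rule would name are not reported here. Alternatives were DESeq2 1.42.0, other scalings, other filters, other fold thresholds, fits of 2 groups, thinning to the smallest library, a replicate block, leaving out each library and, chosen after seeing the data, removal of length and GC trends by loess (span 0.5). The procedure was also run on simulated counts in which few genes were changed, unlike these data, and no conclusion is drawn from that run. With 3 libraries per group, precision is limited by the replicates, and for DEPTOR also by its low counts.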

Additional observations from a re-analysis of the deposited data

How the results depend on the processing

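Across 19 alternatives each, DDIT4 stayed called, from 3.92 to 4.16 in hypoxia, from -2.42 to -1.98 with 32-134D and from 1.71 to 2.08 against vehicle at 20% O2 on the log2 scale, and RPTOR and DEPTOR stayed called in hypoxia and with 32-134D. With 32-134D, the count of 10 genes called fell from 6 to 3 with a fold change above 2 and to 3 with length and GC trends removed, and RHEB at -0.53 lost its call with total library size. Against vehicle at 20% O2 the count of 1 became 2 with DESeq2, 2 with a filter of at least 1 count, 2 with trends removed and 3 with no fold threshold, and ranged from 1 to 3 with each library left out. Of the 102 pathway genes, 75 and 20 were called in hypoxia with no fold threshold and with a fold change above 2, 67 and 11 with 32-134D, and 20 and 0 against vehicle at 20% O2, where 0 is by edgeR. Other totals over the 10 and the 102 genes stayed within 1.5 times. By direction, the 102 genes called higher with 32-134D went from 10 to 5 with trends removed. With total library size, calls in hypoxia went from 7 to 4 upstream of RHEB and from 1 to 4 among other complex subunits and assembly factors.

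The sign turned for genes whose log2 fold change was near 0 in the main fit. With 32-134D, TSC1 was at 0.037 with RLE factors, 0.17 with total library size, 0.10 with upper quartile scaling, 0.037 in DESeq2, 0.073 with at least 10 counts in every library, 0.044 in the fit of 2 groups, 0.17 after thinning and from -0.043 to 0.056 with a library left out. With trends removed TSC1 was at 0.32 in hypoxia, and over the 19 alternatives its lowest value with 32-134D was -0.41. AKT1S1 in hypoxia was at -0.11 with total library size, -0.089 with upper quartile scaling and -0.0059 with at least 10 counts in every library. EIF4EBP2 in hypoxia was at -0.011 with RLE factors, -0.18 with total library size, -0.16 with upper quartile scaling, -0.010 in DESeq2, -0.072 with at least 10 counts in every library, -0.061 after thinning and from -0.074 to 0.068 with a library left out. With 32-134D it was at 0.043, 0.17, 0.11, 0.043, 0.080 and 0.093 under the same settings, 0.0499 in the fit of 2 groups and from -0.047 to 0.071 with a library left out. Against vehicle at 20% O2 it was at -0.0034 with total library size, -0.049 with upper quartile scaling, -0.044 with trends removed and from -0.028 to 0.11 with a library left out. Each difference of a within-library ratio moved by less than the larger SD of the 2 groups when a library was left out or 1 count was added. The cause of these changes was not tested.

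Scaling also moved the balance of calls over all genes. In hypoxia 49.0% of called genes were higher with TMM, 34.5% with total library size and 35.7% with upper quartile scaling, and with 32-134D the shares were 54.2%, 72.0% and 66.1%. Same-numbered replicates did not deviate together: over 9 pairs of libraries the correlation of deviations ran from -0.032 to 0.0052, and in 1 of 9 comparisons of a library with the 3 libraries of another group the highest correlation was with its own number. With the replicate block, 7, 6 and 1 of the 10 genes and 46, 33 and 6 of the 102 were called in the 3 comparisons, and DDIT4 was at 4.14, -2.19 and 1.95. Depth limits DEPTOR most, since the smallest library held 34 of its counts.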
